A study of Mus musculus with 26 samples.

Results

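The compaction and apical polarity genes described here are 10 genes through which the mouse 8-cell embryo tightens its cell contacts and gains an apical surface. They were chosen by name for their known part in that process, with earlier results of these data known but by no rule on measured values, and all 10 were found among the 55487 genes of the scRR-seq-RNA table. They were 3 genes of cell adhesion (Cdh1, Ctnnb1 and Ctnna1), 1 gene of the apical domain (Ezr), 4 genes of the polarity complex (Pard3, Pard6b, Prkci and Prkcz) and 2 genes of contractile actomyosin (Myh9 and Rhoa). Transcripts were read from the transcript table, which held 142699 entries.

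RNA and DNA of the same single blastomeres were profiled by scRR-seq, which lyses a cell, traps its DNA on magnetic beads and turns the released RNA into a full-length total RNA library. No treatment was named, and the embryos were C57BL/6 mouse embryos at the 8-cell stage, made by in vitro fertilization, taken apart by hand and picked by mouth pipette. The tables held 9 of the 13 labelled cells, 3 from embryo 1 (cells 1, 6 and 7) and 6 from embryo 2 (cells 2, 3, 5, 6, 7 and 8). The purpose of these libraries was to benchmark the method, and the labels named no position of a cell in its embryo.

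At the 8-cell stage, blastomeres flatten against each other as E-cadherin, tied to actin through beta-catenin and alpha-catenin, spreads along their contacts. At the same time a cap rich in ezrin and in the Par complex forms on the outer surface, while contractile myosin pulls on the cortex. Cells that keep this apical cap tend towards trophectoderm, and cells without it tend towards the inner cell mass. In the Par complex, the scaffold Par3 and the adaptor Par6 bind an atypical protein kinase C, which is encoded by Prkci or Prkcz.

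Each embryo is 1 biological replicate, so no significance test between groups was made, no p-value is given and SDs describe the spread between cells. The closing number of a sample title fell between 11 and 17 for 3 cells (embryo 1 cell 1, embryo 2 cells 2 and 3) and between 20 and 25 for 6 cells. The study's sample list ties the first range to lysis in a larger volume and the second to lysis in a smaller volume. The labels do not, so the ranges are used here as a technical split. For embryo cells lysed in the smaller volume, the paper reported coverage skewed to the 3' end of transcripts and fewer transcripts detected. All 9 RNA headers named 1 and the same embryo and cell, so the link of a column to its cell rests on the closing number, found in 1 RNA title each.

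Genes above 1 TPM numbered 12411 to 13319 in the cells numbered 11 to 17 and 11058 to 11960 in those numbered 20 to 25, so the ranges did not overlap. All 8 blastomere markers were detected above 1 TPM in at least 1 cell and 7 of them in all 9 cells, Dppa3 with at least 1137.73 TPM. The 7 cumulus and granulosa markers were all at 0 in embryo 1, and in embryo 2 they summed to at most 6.13 TPM, which was Ptx3 alone in cell 6, and 5 of the 7 were listed at 0 in all cells. The 5 sperm markers summed to at most 1.62 TPM and the 3 blood and immune markers to at most 0.71 TPM. Krt8 and Krt18, keratins of the outer cells of later embryos, with 2 collagen genes, summed to 20.41 to 31.47 TPM in the cells numbered 11 to 17 and to 1.65 to 15.14 TPM in the others. The mitochondrial share of TPM spanned 4.28 to 6.77% in embryo 1, and in embryo 2 it spanned 5.98 to 18.2%. The replication score, the percent of bins called replicated, was at most 3.54% in embryo 1 and 62.4 to 80.5% in embryo 2, so embryo and replication stage cannot be told apart.

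RNA of the 10 genes was detected in nearly every cell, without telling maternal RNA from new transcripts. Of the 10, 8 were above 1 TPM in all 9 cells, and the same number was above 5 TPM in all 9. In a single cell 11058 to 13319 of the 55487 genes were above 1 TPM, and the share above it in all 9 was not counted. The exceptions were Ezr, at 0.49 TPM in embryo 1 cell 6, and Prkci, at 0.22 TPM in embryo 2 cell 6. Their summed level was 479.4 to 677.4 TPM per cell, with a mean of 569.8 ± 87.2 for embryo 1 (SD, n = 3 cells) and of 630.5 ± 54.6 for embryo 2 (SD, n = 6 cells). TPM is a share of the RNA of a cell scaled by transcript length. Levels of different genes can thus be set side by side only as far as reads cover transcripts evenly. For the smaller lysis volume the paper reported a skew to the 3' end. The reads behind a value are unknown.

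By mean log2(TPM + 1) over the 9 cells the order of levels was Ctnnb1 (7.55), Rhoa (7.12), Cdh1 (6.58), Ctnna1 (5.99), Prkcz (5.21), Pard3 (4.31), Pard6b (4.17), Myh9 (3.83), Prkci (2.98) and Ezr (2.39). By the mean of gene totals the adhesion genes and Rhoa thus stood above all polarity genes. For Ctnnb1 this rests on Ctnnb1-215, a transcript not annotated as coding that held 72.0% of its TPM and is described below. In protein-coding transcripts alone Ctnnb1 spanned 4.0 to 84.77 TPM and Prkcz 10.47 to 36.34 TPM, so these 2 genes overlapped. Neighbours from Ctnnb1 down to Pard3 were apart by more than the pooled SD between cells, narrowly so for Ctnnb1 and Rhoa (0.43 against 0.41). From Pard3 downwards no neighbours were by this measure. Pard3 and Pard6b were 0.14 apart with a pooled SD of 0.78, and Prkci and Ezr 0.59 apart with 1.08. The pooled SD takes no account of both genes being measured in the same cells. Cell by cell, Myh9 was above Prkci in all 9, while Prkcz was above Pard3 in only 6. Ezr and Prkci fell under the level of 3 that was asked of genes entering a count over all genes, so 8 of the 10 members enter such counts, among 6860 genes.

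**Figure D1:**
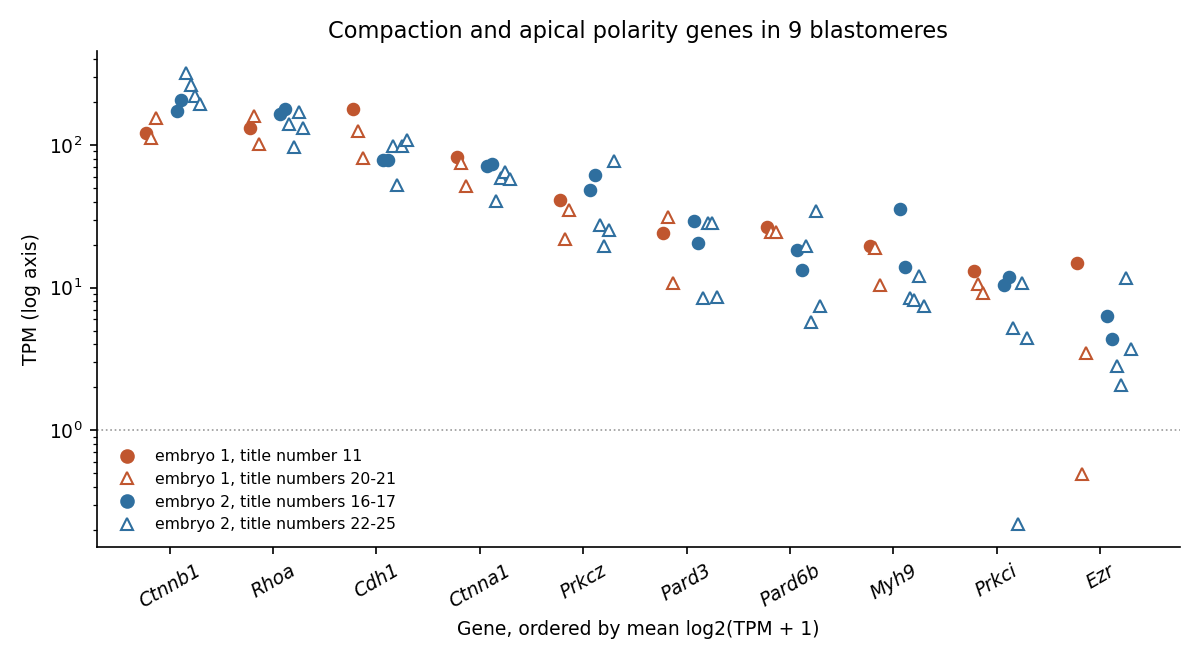
TPM (log axis) of the 10 genes in the 9 cells, ordered by mean level; colour gives the embryo and shape the range of the title number, and the dotted line marks 1 TPM. All cells of embryo 2 lie above those of embryo 1 for Ctnnb1, while the other genes overlap, and the 2 values below 1 TPM belong to Ezr and Prkci.

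Cdh1 encodes E-cadherin, the calcium-dependent adhesion protein that drives compaction (chr8:106603351-106670246 on the plus strand, GRCm38). The 3 blastomeres of embryo 1 gave 179.85 TPM (cell 1), 124.37 (cell 6) and 80.45 (cell 7). In embryo 2 it ran from 52.35 through a median of 88.53 to 108.04 TPM. Its highest 2 values were in embryo 1, but the third cell of that embryo lay inside the range of embryo 2, and mean log2(TPM + 1) differed by -0.54 (embryo 2 minus embryo 1), beside a pooled SD of 0.44. The difference was -1.19 among the cells numbered 11 to 17, where embryo 1 has 1 cell, and -0.21 among those numbered 20 to 25. All of the Cdh1 signal was assigned to 1 transcript, Cdh1-201.

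Ctnnb1 encodes beta-catenin, the link between E-cadherin and alpha-catenin (chr9:120929216-120960507, plus strand). Embryo 1 had 121.23 TPM in cell 1, 111.12 in cell 6 and 153.41 in cell 7. The embryo 2 values, for cells 2, 3, 5, 6, 7 and 8, were 174.19, 207.19, 318.03, 264.18, 222.01 and 194.95 TPM. Every cell of embryo 2 was above every cell of embryo 1, with a difference of 0.82 and a pooled SD of 0.29. It was the only member of the 8 entering the count whose embryos did not overlap, where 1.14% of the 6860 genes were higher in every cell of embryo 2 and 2.57% lower. The difference was 0.64 within the cells numbered 11 to 17 and 0.91 within those numbered 20 to 25. Once each cell was centred on its median level, the difference stayed at 0.87 but the embryos overlapped, at 2.39 in embryo 1 cell 7 and 2.23 in embryo 2 cell 2.

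RSEM assigned most of the Ctnnb1 level to a transcript that is not annotated as coding. Of the summed TPM, 72.0% lay in Ctnnb1-215, a single-exon model annotated as a retained intron (chr9:120959216-120960507, 1292 bases). Only its first 93 bases are intronic, and the other 1199 are the last exon of the protein-coding Ctnnb1-201, with 206 coding bases. Reads inside the last exon fit both models, and how many of those assigned to Ctnnb1-215 came from the coding mRNA was not tested, since the tables hold no reads. The stretch where the intron meets the last exon is shown because the intron is the sequence of Ctnnb1-215 that Ctnnb1-201 lacks, with the intron in lower case and the first 30 coding bases of the last exon in capitals (chr9:120959216-120959338, plus strand, GENCODE M21 transcripts on GRCm38).
Ctnnb1-215: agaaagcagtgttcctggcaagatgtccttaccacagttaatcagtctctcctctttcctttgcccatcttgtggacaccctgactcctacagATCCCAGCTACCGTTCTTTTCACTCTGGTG

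For Ctnnb1-215, embryo 1 cells 1, 6 and 7 had 26.84, 90.55 and 117.47 TPM, and embryo 2 spanned 87.07 to 257.08 TPM, so the embryos overlapped. Ctnnb1-201, with 15 exons, was at 84.77, 68.18 and 50.15 TPM in the 3 cells numbered 11 to 17. It was at 0 to 26.36 TPM in the 6 cells numbered 20 to 25 and was listed at 0 in embryo 1 cell 7 and embryo 2 cell 8. RSEM thus assigned less to the full-length model in every cell of the second range. Its mean log2(TPM + 1) was lower there by 3.85, with a pooled SD of 1.75. The part in this of the 3' skew that the paper reported for the smaller lysis volume was not tested. The share of Ctnnb1 TPM in protein-coding transcripts was 44.9% on average in the cells numbered 11 to 17 and 8.77% in the others, again without overlap, and 3.07% of 4752 genes had such a share lower in every cell of the second range. With Ctnnb1-215 left out, a choice made after the data were seen, embryo 1 spanned 20.57 to 94.39 TPM and embryo 2 spanned 22.68 to 87.12 TPM. The embryo difference was then 0.31 with a pooled SD of 0.85 and the embryos overlapped. The ranges of title numbers then no longer overlapped, at 85.77 to 94.39 TPM against 20.57 to 60.95 TPM. The share of all genes was not counted for this choice. With protein-coding transcripts only, 9.86% of 6165 genes were lower in every cell of the second range.

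**Figure D2:**
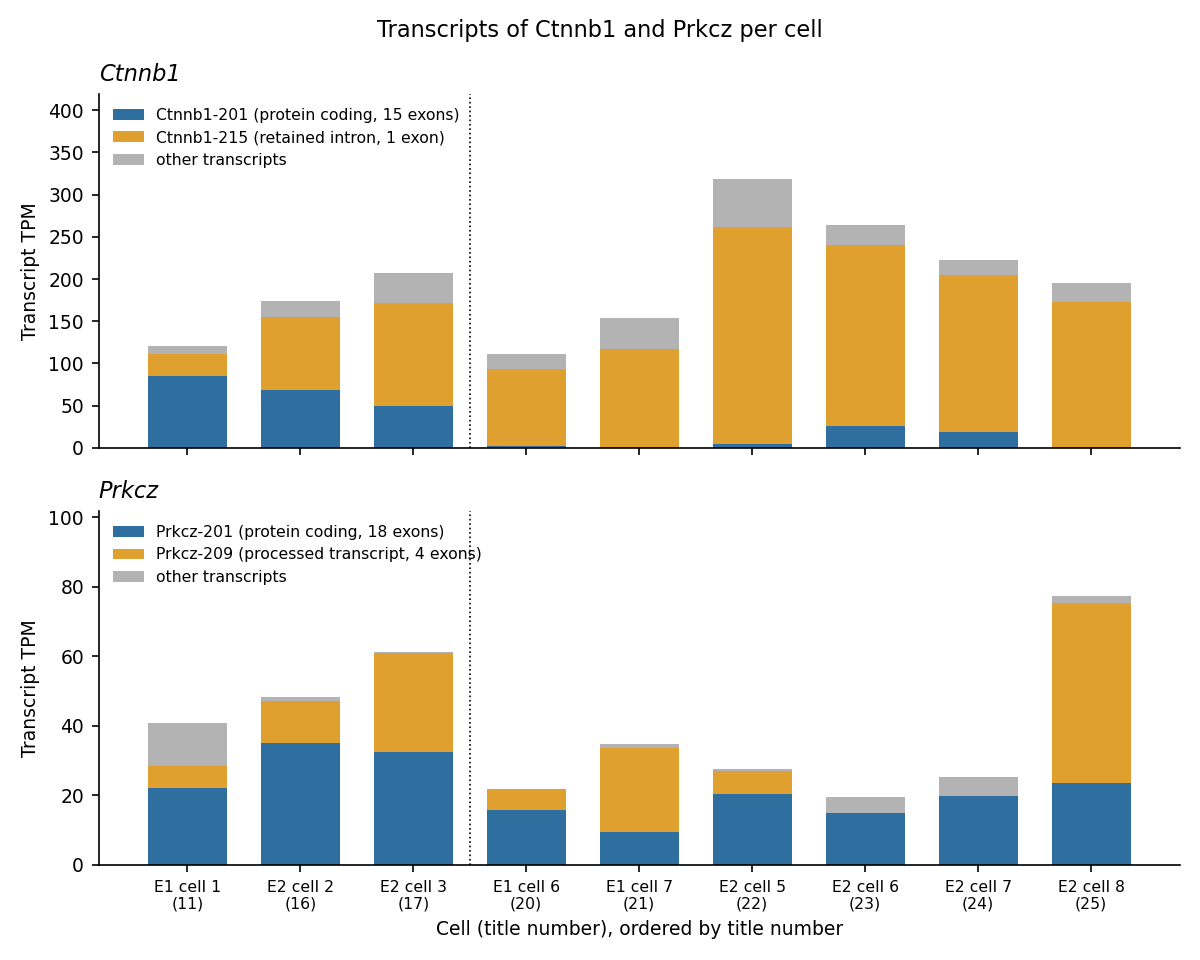
TPM of the transcripts of Ctnnb1 and Prkcz stacked per cell, ordered by title number, with the dotted line between the ranges 11 to 17 and 20 to 25. Ctnnb1-201 is at 50.15 TPM or more left of the line and at 26.36 TPM or less right of it, and Prkcz-209 reaches 51.74 TPM in embryo 2 cell 8.

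Ctnna1 encodes alpha-catenin, which binds beta-catenin and actin (chr18:35118859-35254779, plus strand). Cells 1, 6 and 7 of embryo 1 had 82.61, 74.54 and 51.31 TPM, and embryo 2 ran from 40.45 through a median of 61.4 to 73.04 TPM. The embryos overlapped, with a difference of -0.19 and a pooled SD of 0.32. It varied little between cells, with an SD of 0.31 on the log2 scale, the smallest of the 10 genes and next to that of Rhoa (0.32). Ctnna1-201 held 94.7% of its TPM. Within embryo 2 its level was lower in all 4 cells numbered 22 to 25 than in cells 2 and 3, by 0.40 with a pooled SD of 0.25, as was the level of 19.1% of all 6860 genes.

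Ezr encodes ezrin, which ties the membrane of the apical cap to actin (chr17:6738041-6782784, minus strand). The 3 blastomeres of embryo 1 gave 14.89 TPM (cell 1), 0.49 (cell 6) and 3.47 (cell 7). Cells 2, 3, 5, 6, 7 and 8 of embryo 2 had 6.33, 4.37, 2.80, 2.06, 11.75 and 3.73 TPM. Ezr-201 held 96.8% of its TPM. It was the lowest gene of the set by mean level and its highest value was 30.4 times its lowest. The high values came from both embryos, and the embryo difference of 0.22 was small beside the pooled SD of 1.10. Its sign depended on the cells used, at -1.34 among those numbered 11 to 17 and 1.00 among those numbered 20 to 25. Of its paralogs, the other ERM proteins, radixin (Rdx) was at 3.35 to 18.46 TPM and moesin (Msn) stayed below 1 TPM in all cells.

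Pard3 encodes the scaffold Par3 (chr8:127063893-127612286, plus strand). Embryo 1 had 24.20 TPM in cell 1, 31.39 in cell 6 and 10.81 in cell 7. The embryo 2 values, for cells 2, 3, 5, 6, 7 and 8, were 29.51, 20.47, 8.43, 28.15, 28.41 and 8.58 TPM. Cells thus fell near 10 or above 20 TPM in both embryos, and the embryo difference was -0.15 with a pooled SD of 0.79. The low values were all in cells numbered 20 to 25, where 31.39, 28.15 and 28.41 TPM were also found. Between the title ranges the difference was -0.53 with a pooled SD of 0.75. No transcript dominated: 28 were annotated, 15 were above 1 TPM in at least 1 cell and 6 different ones led in the 9 cells. The 2 with at least 10% of its TPM were Pard3-215 (20.1%), with 6 exons, and Pard3-225 (10.9%), with 3 exons. Both are short protein-coding models.

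Pard6b encodes a Par6 adaptor (chr2:168081004-168101203, plus strand) and has 1 annotated transcript. Embryo 1 was even, with 26.57, 24.65 and 24.35 TPM in cells 1, 6 and 7, an SD of 1.2 TPM around a mean of 25.2 (n = 3 cells). Cells 2, 3, 5, 6, 7 and 8 of embryo 2 had 18.26, 13.35, 19.42, 5.69, 34.20 and 7.48 TPM. All but cell 7 of embryo 2 were below embryo 1, and the difference was -0.81 with a pooled SD of 0.75. The difference was -0.73 in the cells numbered 11 to 17 and -0.84 in those numbered 20 to 25. Of its paralogs, Pard6a was below the level entering the counts and Pard6g was listed at 0 in all 9 cells.

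Prkci and Prkcz encode the atypical kinases iota and zeta. Prkci (chr3:30995747-31052959, plus strand) had 13.11 TPM in embryo 1 cell 1, 10.58 in cell 6 and 9.19 in cell 7. The embryo 2 values, for cells 2, 3, 5, 6, 7 and 8, were 10.44, 11.79, 5.22, 0.22, 10.75 and 4.45 TPM. The top of the range was alike in both embryos, and 3 cells of embryo 2 were lower than all others, cell 6 by far. The difference of -0.88 lay within the pooled SD of 1.09, and it was -0.40 without embryo 2 cell 6. Prkci-201, with 18 exons, held 83.9% of its TPM, and the short Prkci-203 (10.1%) was listed at 0 in 7 cells.

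Prkcz (chr4:155260129-155361361, minus strand) had 40.93 TPM in embryo 1 cell 1, 21.84 in cell 6 and 34.84 in cell 7. Cells 2, 3, 5, 6, 7 and 8 of embryo 2 had 48.44, 61.33, 27.47, 19.66, 25.19 and 77.22 TPM. It was above Prkci in all 9 cells. The embryos overlapped, with a difference of 0.28 and a pooled SD of 0.69. Its gene total was assigned mainly to 2 models. The full-length Prkcz-201, with 18 exons, was at 9.37 to 35.12 TPM. Prkcz-209, a processed transcript of 4 exons near the end of the gene, was at 0 to 51.74 TPM. Of the 790 bases of Prkcz-209, 718 lie in exons of Prkcz-201. Reads there fit both models, and which of them they came from was not tested. The highest gene value, in embryo 2 cell 8, held 51.74 TPM of Prkcz-209 and 23.66 TPM of Prkcz-201. In protein-coding transcripts alone, which leave out Prkcz-209, the cells numbered 20 to 25 were at 10.47 to 25.48 TPM. Each was below those numbered 11 to 17, at 32.85 to 36.34 TPM, a comparison added after the data were seen. Counted in the same way, 9.86% of 6165 genes were lower in every cell of the second range.

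The Prkcz gene is known for a second start inside the gene, used in brain for a kinase that lacks the regulatory part. Prkcz-202, which begins near that internal start, was at 0 to 1.82 TPM in the 9 cells, against at least 9.37 TPM for Prkcz-201. The annotated start of Prkcz-201 was 67 bases from a RefSeq start and that of Prkcz-202 was 17 bases from another. The 250 bases before each of these RefSeq starts are shown, since RSEM assigned much to the transcript of one and little to that of the other, with CG dinucleotides in capitals (GRCm38.p6, minus strand, chr4:155361429-155361678 and chr4:155345790-155346039). The upstream window held 25 CG and this internal one 7. A further RefSeq start inside the gene, whose 250 bases held 10 CG, is not shown.
Prkcz upstream start: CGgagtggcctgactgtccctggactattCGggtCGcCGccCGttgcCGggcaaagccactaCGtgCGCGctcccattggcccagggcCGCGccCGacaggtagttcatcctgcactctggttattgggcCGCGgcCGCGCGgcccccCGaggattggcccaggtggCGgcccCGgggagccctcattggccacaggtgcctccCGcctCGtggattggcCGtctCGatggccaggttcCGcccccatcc
Prkcz internal start: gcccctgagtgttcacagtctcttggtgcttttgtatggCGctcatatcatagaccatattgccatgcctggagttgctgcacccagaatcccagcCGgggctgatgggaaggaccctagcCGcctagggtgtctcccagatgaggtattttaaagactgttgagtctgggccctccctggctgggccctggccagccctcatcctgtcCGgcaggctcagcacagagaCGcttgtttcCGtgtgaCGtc

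RefSeq promoter windows of 300 bases were matched for 8 of the 10 genes, 13 windows in all, and Cdh1 and Ctnna1 had none in the table. The 250 bases before the start held a median of 25 CG in these windows and of 6 in all 32851 windows. The palindrome GCCNNNGGC, bound by TFAP2 factors, was found in 8 of the 13 windows, in 6 of the 8 genes, and in 16.6% of all windows. The TEAD letters GGAATG, searched on both strands, were found in 1 of the 13 windows, that of Prkci, and in 14.7% of all windows. The windows of Ctnnb1 overlap in part and were counted separately. These are matches of letters in windows of unequal base composition, so the share in all windows is not a like comparison. RNA of the factors Tfap2c and Tead4, which act upstream of apical domain formation in the 8-cell embryo, was found in every cell. Tfap2c was at 50.27 to 107.45 TPM and Tead4 at 41.20 to 160.75 TPM, and their proteins were not measured.

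Myh9 encodes the heavy chain of non-muscle myosin IIA (chr15:77760587-77842175, minus strand). The 3 blastomeres of embryo 1 gave 19.53 TPM (cell 1), 18.81 (cell 6) and 10.43 (cell 7). The embryo 2 values, for cells 2, 3, 5, 6, 7 and 8, were 35.70, 13.99, 8.44, 8.16, 11.96 and 7.48 TPM. The embryos overlapped, with a difference of -0.34 and a pooled SD of 0.72. The difference between title ranges was larger, at -0.98 with a pooled SD of 0.52, and within embryo 2 cells 2 and 3 were above all 4 others, again beside 19.1% of all genes. Myh9-201, with 41 exons, held 67.9% of its TPM. The short models Myh9-208 (11.3%) and Myh9-209 (10.6%) were listed at 0 in 6 and 7 cells. All bases of both short models lie in exons of Myh9-201, so reads there fit either, and their origin was not tested. Myh10, the paralog of Myh9 for myosin IIB, had a higher mean log2 level of 5.49.

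Rhoa encodes the small GTPase RhoA, which drives the contraction of actomyosin (chr9:108306129-108337934, plus strand). Embryo 1 had 130.50 TPM in cell 1, 158.89 in cell 6 and 101.11 in cell 7. Cells 2, 3, 5, 6, 7 and 8 of embryo 2 had 164.13, 180.00, 141.20, 96.39, 169.62 and 131.45 TPM. It was even across cells, with 1.87 times between highest and lowest, and the embryo difference of 0.17 lay within the pooled SD of 0.33. Rhoa-201 held 98.5% of its TPM.

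Over the 8 members entering the counts, the median embryo difference was -0.17, with 3 positive and 5 negative, beside a median of -0.04 over all 6860 genes. It was 0.11 among the cells numbered 11 to 17 and -0.20 among those numbered 20 to 25, so its sign depended on the range. None of the 8 differed by 1 or more on the log2 scale, where 4.83% of all genes were higher by that much in embryo 2 and 6.05% lower. The members' differences ran from -0.81 for Pard6b to 0.82 for Ctnnb1. After each cell was centred on its median, the genes without overlap numbered 125 higher and 151 lower, against 78 and 176 as deposited.

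Between the title ranges most members were lower in the second range, as were most genes. The median difference, numbers 20 to 25 minus 11 to 17, was -0.33 over the 8 members and -0.27 over all genes, and 7 of the 8 were negative, as were 66.6% of all genes. The members' median was -0.39 within each embryo taken alone. Over all 10 members, without the level filter, it was -0.47. With protein-coding transcripts only, an alternative added after the data were seen, it was -0.54 over the 8 members. No member was without overlap, where 2.33% of all genes were higher and 8.85% lower in every cell of the second range. None reached a difference of 1, where 4.29% of all genes were higher and 10.7% lower by that much, and Myh9 came closest. The medians of all genes per cell were 0.22 lower on average in the second range. Relative to them Myh9 was at -0.76 and Prkcz at -0.46, while Cdh1 and Pard6b, at -0.19 each as deposited, turned to 0.03 each. With this centring, genes without overlap numbered 293 higher and 298 lower, against 160 and 607 as deposited. Ezr and Prkci, not entering the counts, were lower by 1.06 and 1.04 on the log2 scale in the second range, with pooled SDs of 0.95 and 1.05.

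**Figure D3:**
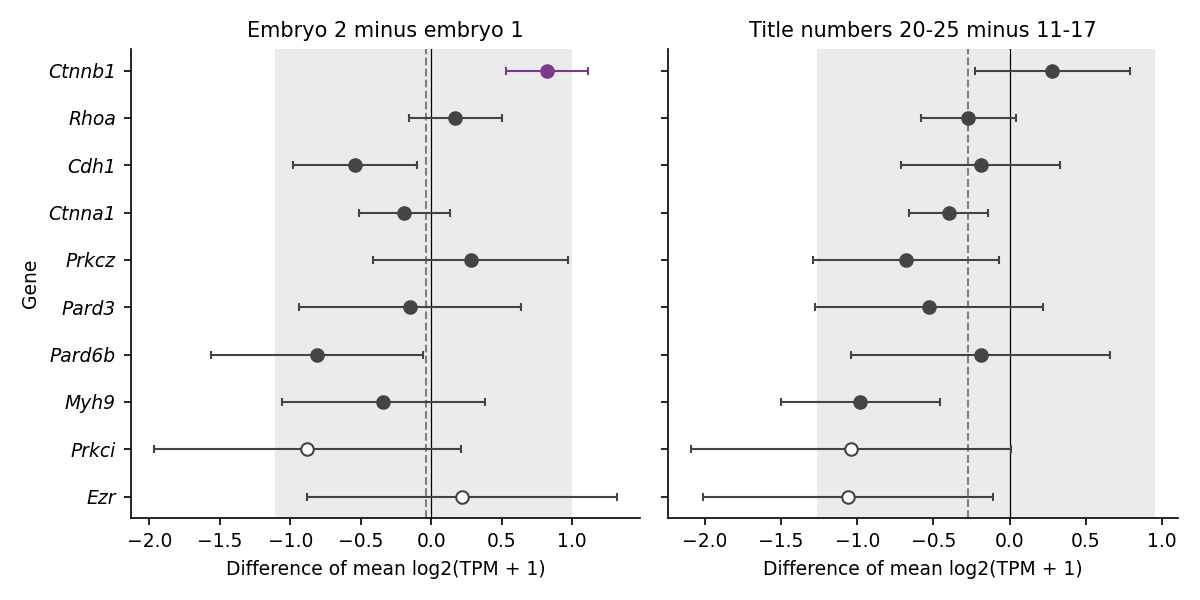
Difference of mean log2(TPM + 1) of each gene between embryos (left) and between ranges of title numbers (right), with the pooled SD between cells as bars; the grey band spans the 5th to the 95th percentile of 6860 genes (-1.10 to 0.99 left and -1.26 to 0.95 right), the dashed line is their median and open points are genes below the level filter. Ctnnb1, in purple, is the gene whose embryos do not overlap, at 0.82.

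Single cells stood out across the set. Embryo 2 cell 6 had the lowest value of the 9 cells for 5 of the 10 genes and for 18.1% of all 6860 genes. Embryo 1 cell 1 had the highest value for 4 of the 10 and for 16.9% of all genes. Cell 6 was also the cell of embryo 2 with the fewest genes above 1 TPM (11058), the lowest replication score (62.4%) and the 6.13 TPM of cumulus markers, and the part of these in its low values was not tested. Without this cell the median embryo difference over the 8 members stayed negative, within the range of -0.48 to -0.01 that leaving out each cell in turn gave.

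Pairs of the 10 genes varied together to different degrees from cell to cell. Over the 45 pairs, Pearson's r of log2(TPM + 1) across the 9 cells had a median of 0.27, with 33 positive, and ran from -0.69 for Ctnnb1 and Ctnna1 to 0.80 for Pard6b and Prkci. Both genes of the last pair were lowest in embryo 2 cell 6, at 5.69 and 0.22 TPM, and their rank correlation (Spearman) was 0.67. Over all pairs of the 6860 genes the median was 0.06 and 55.3% were positive. With cells centred on their medians the member pairs had a median of 0.03 with 26 positive, and 49.9% of all pairs were positive, so the members lay closer to all pairs. The pairs of Ctnnb1 and Ctnna1 and of Pard6b and Prkci were then at -0.55 and 0.74, and the lowest was Ctnnb1 and Myh9 at -0.70. These values describe 9 libraries that share embryo, title range and scaling to a fixed total. The 3 genes most like Cdh1 across the 9 cells were Rnd3 (r = 0.941), Zfp385a (0.928) and Ilk (0.924). Those most like Ezr were Cers5 (0.938), Asns (0.930) and Ate1 (0.923). Those most like Pard6b were Snapc4 (0.981), Rcn2 (0.910) and Vma21 (0.909). They are the highest values among 6860 genes over 9 points.

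Of 54 other genes of adhesion, polarity and actomyosin, 34 were above 1 TPM in all cells. Above it in none were 5 (Pard3b, Pard6g, Msn, Myl9 and Mylk). The share of all genes above 1 TPM in all cells was not counted. All 7 basolateral genes listed were above 1 TPM in all cells. They were led by the kinase gene Mark3 (56.54 to 218.56 TPM) and the scaffold gene Dlg1 (71.99 to 166.08 TPM). Of the 9 adherens junction genes outside the members, 3 were so. Among them were Jup, for plakoglobin (20.43 to 61.25 TPM), and Afdn, for afadin (14.55 to 90.72 TPM). The members Cdh1, Ctnnb1 and Ctnna1, of the same junctions, were above 1 TPM in all cells and are not in this count. Of the apical Par and Crumbs genes, 5 of 9 were above 1 TPM throughout. They were led by Cdc42, the GTPase that activates Par6, at 132.64 to 202.56 TPM, and by Crb3, for a Crumbs protein, at 80.04 to 171.61 TPM. Of 6 ERM proteins and partners 1 was, Rdx, and the next in level was Slk, for a kinase that activates ERM proteins (0.99 to 18.55 TPM).

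Among 14 actomyosin genes, 11 were above 1 TPM in all cells. The highest were the cytoplasmic actin gene Actg1 (417.75 to 1383.07 TPM) and Myl6, for a myosin light chain (377.23 to 974.84 TPM).

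For the 34 pathway genes above the level filter, the median embryo difference was -0.10, with 15 positive and 19 negative. None was higher in every cell of embryo 2 and 1 was lower, beside 1.14% and 2.57% of all genes. The gene was Actb, the other cytoplasmic actin. Actb had 904.75, 634.75 and 627.28 TPM in the cells of embryo 1 against 264.19 to 602.23 TPM in embryo 2, and differed by -0.78 with a pooled SD of 0.41. It was named after its values were seen. Its coding sequence is nearly that of Actg1, so that reads may be split between them. None reached a difference of 1 between embryos.

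Between the title ranges the median over these 34 genes was -0.47, with 24 negative. Lower in every cell of the second range were 2 of the 34, beside 8.85% of all genes: Anln, for the actin-bundling anillin, at 108.07 to 130.39 TPM against 16.74 to 98.38 TPM (difference -1.18, pooled SD 0.77), and Llgl1, for a basolateral Lgl protein, at 24.74 to 30.90 TPM against 13.82 to 16.15 TPM (-0.85, pooled SD 0.11). Below the level filter, Plekha7, for a junction protein, was at 2.97 to 28.58 TPM against 0 to 2.94 TPM, without overlap. Myl12b, for a myosin regulatory light chain, was likewise at 21.65 to 40.40 TPM against 0 to 5.21 TPM for the identifier with the longer span. It has 2 overlapping identifiers, and their sum was 45.54 to 66.36 TPM against 16.15 to 38.68 TPM.

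**Figure D4:**
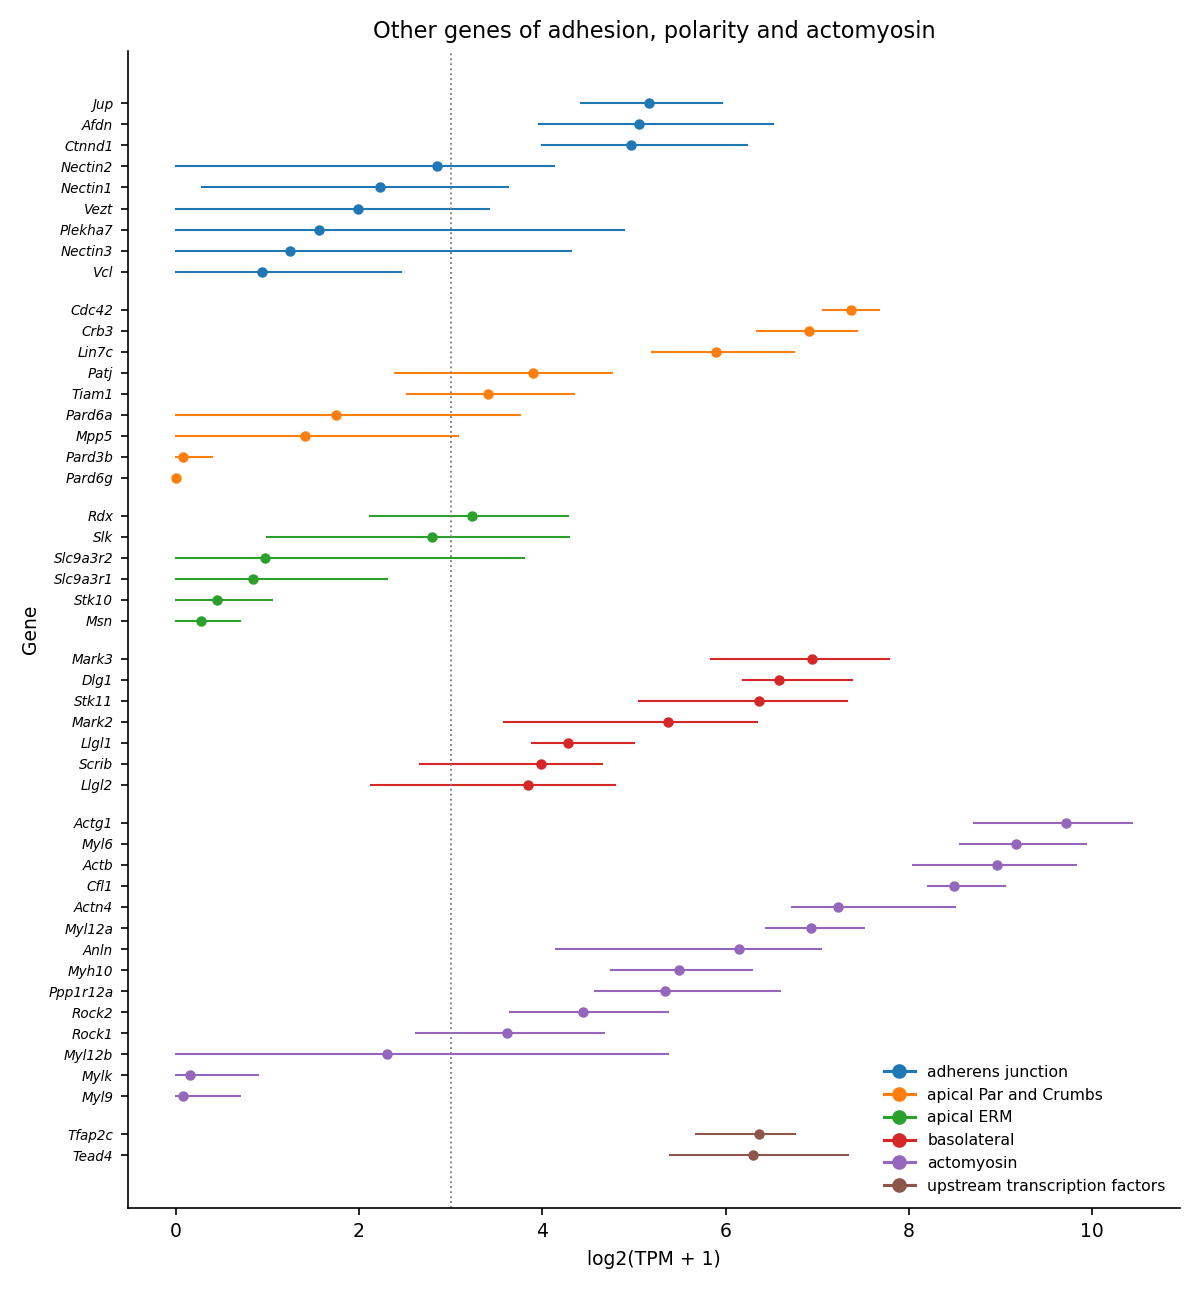
Mean log2(TPM + 1) over the 9 cells (points) and the range between the lowest and highest cell (lines) of 47 of the 54 other genes of adhesion, polarity and actomyosin, by role; the dotted line is the level filter of 3. All 7 basolateral genes lie right of the line and 1 of the 6 genes of ERM proteins and partners does.

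In scRR-seq-DNA of the same cells, the 10 genes overlapped 39 bins of 40 kb. A gene was called replicated in a cell when more of its bins were replicated than unreplicated. All 10 were called unreplicated in the 3 cells of embryo 1, as nearly all bins of these cells were, and a uniform profile of this kind does not tell a cell before replication from one after it. In embryo 2, 8 of the 10 were replicated in all 6 cells, beside 74.4% of 5886 genes with bins. The 2 exceptions were Prkci, unreplicated in all 3 of its bins in cell 3, and Myh9, unreplicated in all 3 of its bins in cell 6. Pard3, the longest of the genes, was caught in between in cell 6, with 9 of its 15 bins replicated.

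The RNA levels of these 2 genes are set beside their replication state. Prkci was at 11.79 TPM in cell 3, where it was unreplicated, the highest value of embryo 2, and between 0.22 and 10.75 TPM in the 5 cells where it was replicated. Myh9 was at 8.16 TPM in cell 6, where it was unreplicated, inside the 7.48 to 35.70 TPM of the 5 cells where it was replicated. With 1 cell each, no comparison was made.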

How the data were processed

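Gene and transcript TPM of 9 single cells and replication state scores in 40 kb bins of the same cells were used. The authors deposited the TPM after setting reads to a common number per sample, aligning to mm10 with Hisat and estimating with RSEM and GENCODE M25 in the ramdaq pipeline; TPM keeps no depth, so counting intervals could not be given. The deposited score is 1 for a replicated and -1 for an unreplicated bin, called by the authors with AneuFinder after alignment with bwa (BWA 0.7.17-r1188 in the submitters' processing notes). A further 14 columns of each of the 3 tables carried no label of this series and were not used. The 4 other labelled cells were not analysed here.

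Differences are of mean log2(TPM + 1), pseudocount 1, beside the pooled SD between cells; counts over all genes used the 6860 genes with a mean of at least 3. The script for these differences was checked on simulated data with known shifts, which it recovered. Genes were placed by GENCODE M21 on GRCm38, which matched 55141 of 55487 identifiers without their versions. Promoter sequences are from RefSeq. Python 3.11.15, numpy 2.4.6, pandas 2.3.3 and matplotlib 3.10.9 were used.

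The members and gene lists were chosen with earlier results of these data known. Named were all members, the 2 highest other genes per role, those other genes differing by at least 1 without overlap, the 3 genes most correlated with Cdh1, Ezr and Pard6b, and transcripts with at least 10% of a gene's TPM. Prkcz-202, Myh10, Pard6a, Actb, Llgl1 and the genes above 1 TPM in no cell were named after their values were seen. One role of the gene list, with 7 genes, entered the counts over the list and is not reported here by itself. Alternatives were pseudocounts of 0.1 and 10, centring, removal of mitochondrial genes, each range or embryo alone, no level filter, leaving out each cell, and, added later, protein-coding transcripts only.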

Additional observations from a re-analysis of the deposited data

Results flagged for a closer look

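The 6 cells of embryo 2 were screened for a value apart from the rest in 30 quantities (the 10 genes, the 17 other pathway genes named by rule, Ctnnb1-201, Ctnnb1-215 and the members' sum), and embryo 1, with 3 cells, was not screened. One was found: Prkci in embryo 2 cell 6, at 0.22 TPM, whose gap to the next cell (4.45 TPM) was 0.637 of the range on the log2 scale and above Dixon's 95% critical value for 6 values. About 1 in 20 such groups is found by chance, a rate that 1 among 30 does not exceed.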

How the results depend on the processing

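Of 534 recomputed values, 512 stayed within the spread between cells (for counts, within 1.5 times), 22 moved beyond it and no called value changed sign, while 20 values that were not called did. A value was called where the groups did not overlap as reported, which held only for Ctnnb1 between embryos. Some values could not move, such as those of Cdh1 with protein-coding transcripts only. The number of members without overlap between embryos was 1 as reported and 0 with each cell centred on its median. It was also 0 with protein-coding transcripts only and 0 without Ctnnb1-215; the last 2 alternatives were chosen after seeing the data. Leaving out each cell gave 1 to 3: 3 without embryo 1 cell 7 (Cdh1 and Ctnna1 lower beside Ctnnb1, where 5.47% of all genes were lower) and 2 without embryo 2 cell 7 (Pard6b lower, 3.4% of all genes). Between title ranges the number was 0 as reported, 2 with embryo 2 only (Ctnna1 and Myh9 lower, 19.1% of all genes) and 2 with protein-coding transcripts only (Ctnnb1 and Prkcz lower, 9.86% of 6165 genes). Leaving out each cell gave 0 to 2: 2 without embryo 1 cell 6 (Ctnna1 and Myh9 lower, 10.7% of all genes), 1 without embryo 2 cell 3 (Myh9 lower, 15%) and 1 without embryo 2 cell 8 (Prkcz lower, 9.84%). The mean summed TPM of the members was 610.3 as deposited and 679.6 without mitochondrial genes. The median embryo difference over the other pathway genes was -0.32 to 0.02 when each cell was left out. Except as said, the cause was not tested. No paired analysis was possible because the cell numbers of the 2 embryos name different cells, and no test between groups was made. With 1 embryo a group and no read depth, these data cannot tell embryo from replication stage or place a limit on values listed at 0.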
